A study of Bos taurus with 4 samples.

Results

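POU5F1, SOX2 and NANOG encode the transcription factors at the core of the pluripotency network. POU5F1 (OCT4) is a POU-domain factor that pairs with SOX2, a member of the SOX family of HMG-box proteins, on shared DNA elements, and NANOG is a homeobox factor that helps to hold cells in the self-renewing state. H3K4me3 is found mostly at active or poised promoters, H3K27me3 is laid down by Polycomb repressive complex 2 at silenced developmental genes, and promoters that carry both marks are called bivalent. SOX2 also acts in the neural lineage, whereas POU5F1 and NANOG are largely restricted to early embryonic and germ cells.

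The marks were profiled around these 3 genes in NBFR-bESCs, bovine embryonic stem cells kept on mouse embryonic fibroblast feeders in N2B27 medium that held FGF2 at 20 ng/mL, the Wnt/tankyrase inhibitor IWR-1 at 2.5 µM and BSA at 1%. CUT&RUN, in which an antibody directs a nuclease to the marked chromatin, was run on about 50000 cells per library after the feeders were depleted with magnetic beads, with 2 libraries for H3K4me3 and 2 for H3K27me3. The sample labels describe a line made from 1 female in vitro fertilized day 7 blastocyst and established after 4 passages, while the study's figure legend speaks of independent lines, so whether the replicates are separate lines was not settled from these sources. All samples belong to this culture, with no other cell type, treatment or control library, and how far remaining feeder cells contributed was not tested.

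Each library gave a list of peaks with a whole-number score whose meaning is not stated. Scores are therefore ranked within a list, and a score percentile is the share of the list's peaks with an equal or lower score. The number of reads is not known from the lists, so a missing peak is described as not listed. The H3K4me3 lists held 26048 and 23986 peaks in replicates 1 and 2, and the H3K27me3 lists held 24430 and 21244. For each gene the main peak is the H3K4me3 peak of highest score within 20 kb of an approximate position on ARS-UCD1.2. That position was given in advance as the place of the gene's main H3K4me3 peak. The neighbourhood of a gene reaches 500 kb to each side of the main peaks of both replicates merged. These neighbourhoods held 396 of the 95708 listed peaks, with 329 around POU5F1, 51 around NANOG and 16 around SOX2. No gene annotation of this build was used, so peaks are given by position and not as promoter, exon or intron. The link of a main peak to its gene rests on the peak position given in advance. With 2 libraries per mark no test was made, and both replicate values are given in place of a mean and SD.

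All 3 genes had a high-ranking main H3K4me3 peak in both libraries, and the order of the genes depended on what was ranked. Each main peak was chosen as the highest score within 20 kb of a position given as that of an H3K4me3 peak. This choice by itself favours a high rank. No such maximum was taken around other positions, so the ranks describe these peaks and are not a test. By score over the whole list the order was POU5F1, SOX2 and NANOG in both replicates, while ranked within its own chromosome SOX2 (99.5 and 99.3) stood above POU5F1 (99.3 and 98.6). At POU5F1 on chromosome 23, the main peak of replicate 1 ran from 27979201 to 27995400 with a score of 2949, which stood 30th in its list. In replicate 2 it ran from 27977601 to 27988200 with a score of 1907 and stood 78th. Within chromosome 23 it stood 18th of 2483 peaks in replicate 1 and 32nd of 2168 in replicate 2. Many of the peaks ranked above it in each list thus lay on the same chromosome. At SOX2 on chromosome 1, both libraries listed the peak from 85296601 to 85308400, with scores of 1741 and 1554 that stood 140th and 163rd. The NANOG peak on chromosome 5 was weaker in both libraries. In replicate 1 it spanned 101411801 to 101417400 with a score of 920, the 1414th of the list. In replicate 2 it spanned 101411401 to 101417600 with a score of 939, the 992nd. In percentiles of the list these peaks stood at 99.9 and 99.7 for POU5F1, 99.5 and 99.3 for SOX2, and 94.6 and 95.9 for NANOG, so the replicate values of the 3 genes did not overlap.

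**Figure D1:**
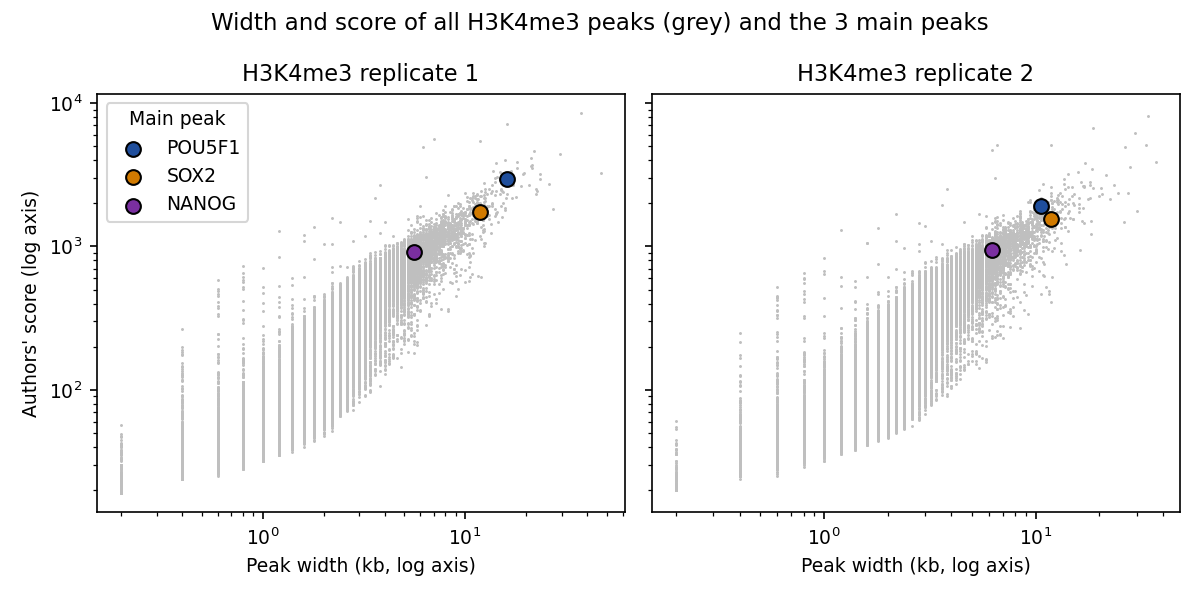
Score against width (kb), both on log axes, of every H3K4me3 peak in replicate 1 (left) and replicate 2 (right), with the main peaks of POU5F1, SOX2 and NANOG in color. POU5F1 and SOX2 lie at 10.6 to 16.2 kb in the upper right of both clouds, and NANOG at 5.6 and 6.2 kb lies below them.

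Peaks were made of windows of 200 bp, and the main peaks differed in how many they spanned. POU5F1 spanned 16.2 kb in replicate 1 and 10.6 kb in replicate 2, SOX2 spanned 11.8 kb in both, and NANOG spanned 5.6 and 6.2 kb. The median H3K4me3 peak spanned 2200 and 2400 bp, so each main peak was at least 2.55-fold wider than the median of its list. By width SOX2 stood 106th and 107th, while POU5F1 moved from 26th in replicate 1 to 172nd in replicate 2. The order of POU5F1 and SOX2 by width was thus opposite in the replicates, and NANOG, at 1701st and 1284th, followed both. After peaks within 2 kb were joined, POU5F1 (percentiles of 99.9 and 99.6) was above SOX2 (98.2 and 98.1) in both. This limit was set after the data were seen. It was wider than a gap that split H3K4me3 at POU5F1 in replicate 2 and narrower than the gaps beside the SOX2 peak. The order in replicate 2 thus rests on the limit.

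Divided by the number of windows, the order changed to POU5F1, NANOG and SOX2 in both replicates. The score per window was 36.4 and 35.98 at POU5F1, 32.9 and 30.3 at NANOG, and 29.5 and 26.3 at SOX2, against list medians of 18.1 and 17.7. POU5F1 was at or above 92.7% and 95.8% of the peaks on this measure, NANOG at or above 86.2% and 86.0%, and SOX2 at or above 77.7% and 75.3%. SOX2 thus combined a high total score and a wide peak with a score per window below that of the narrower NANOG peak in each library. These percentiles did not overlap between the genes.

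**Figure D2:**
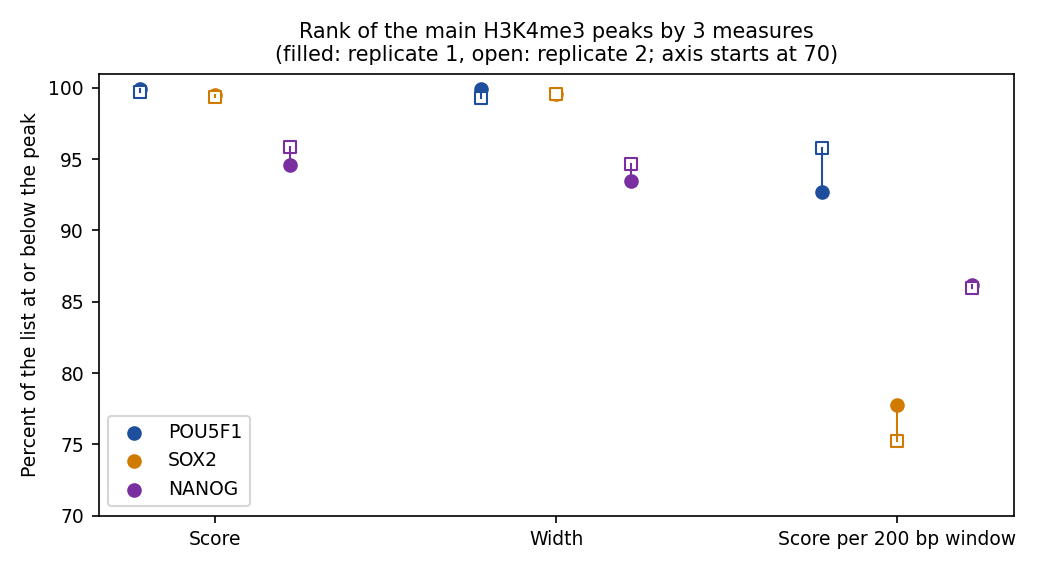
Percent of the H3K4me3 list at or below the main peak (vertical axis, starting at 70) by score, width and score per window of 200 bp, for replicate 1 (filled circles) and replicate 2 (open squares). SOX2 falls from above 99% by score and width to 77.7% and 75.3% by score per window, below POU5F1 and NANOG.

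The limits of the main peak were the same in both libraries at SOX2, where 100% of the combined span was common. At NANOG the start moved by 400 bp and the end by 200 bp, and 90.3% of the span was common. POU5F1 differed more, with 50.6% of a span of 17800 bp in common. The start lay 1600 bp lower in replicate 2 and the end 7200 bp lower, and replicate 2 listed a second peak in the remaining stretch, from 27990001 to 27996200. That second peak had a score of 767, a percentile of 92.0, and was separated from the main peak by a gap of 1.8 kb. The main peak of replicate 1 ran across that gap and ended at 27995400, and a separate small peak followed it from 27996001 to 27998600. The drop in the width of POU5F1 between the libraries thus coincided with a split of the domain, with H3K4me3 listed on both sides of the split.

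H3K27me3 was placed differently at the 3 genes. No H3K27me3 peak touched the main peak of POU5F1 or NANOG in either library, while H3K27me3 peaks lay within the main peak of SOX2 in both. Over the whole lists, 29.3% of the H3K4me3 peaks of replicate 1 and 29.5% of those of replicate 2 overlapped an H3K27me3 peak of the same replicate number, and on the autosomes alone 24.7% and 24.9% did. Among the H3K4me3 peaks of the whole list that scored at least as high as SOX2, 55 of 141 (39.0%) and 57 of 164 (34.8%) did so. Among those at least as wide as SOX2, 58 of 111 (52.3%) and 55 of 120 (45.8%) did. For peaks at least as wide as POU5F1 the shares were 60.7% and 43.6%, and for NANOG 24.9% and 24.3%. Of the autosomal peaks at or above 99% of the scores, 71 of 247 (28.7%) and 63 of 227 (27.8%) overlapped H3K27me3. Among peaks of the whole list scoring at least as high as POU5F1, 20 of 30 (66.7%) in replicate 1 and 35 of 79 (44.3%) in replicate 2 overlapped H3K27me3. POU5F1 was among those without it. For NANOG the shares, also over the whole list, were 17.2% of 1417 and 18.9% of 996 peaks. Many of the peaks scoring as high as POU5F1 lay on chromosome 23, where it stood 18th and 32nd. The part of that chromosome in the shares for POU5F1 was not tested.

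At SOX2, H3K27me3 covered 5.6 kb or 47.5% of the main peak in replicate 1 and 10.4 kb or 88.1% in replicate 2. In replicate 1 it came from a peak from 85297401 to 85303000 with a score of 146. In replicate 2 it came from a peak from 85296201 to 85303800 with a score of 311 and another from 85305201 to 85308400 with a score of 118. The last of these was not listed in replicate 1, and with shared H3K27me3 peaks alone the covered share in replicate 2 was 61.0%. These peaks stood at score percentiles of 40.3 in replicate 1 and of 49.6 and 6.78 in replicate 2, so that none reached the median of its list. Both libraries agreed that the side of lower coordinates was covered. A further H3K27me3 peak, of 10.8 kb and 12.8 kb and at percentiles of 59.9 and 59.7, ended 0.8 and 1.8 kb before the H3K4me3 peak on that side. On the side of higher coordinates the next H3K27me3 peak lay 1949 kb away in both libraries. In the typical H3K4me3 peak that overlapped H3K27me3, the covered share was 100% (median of each list), so the partial cover at SOX2 stood at the low end, at or above 7.91% and 20.2% of such peaks. Those peaks were of all widths and most were narrower than SOX2. The covered share was not compared among peaks of like width.

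**Figure D3:**
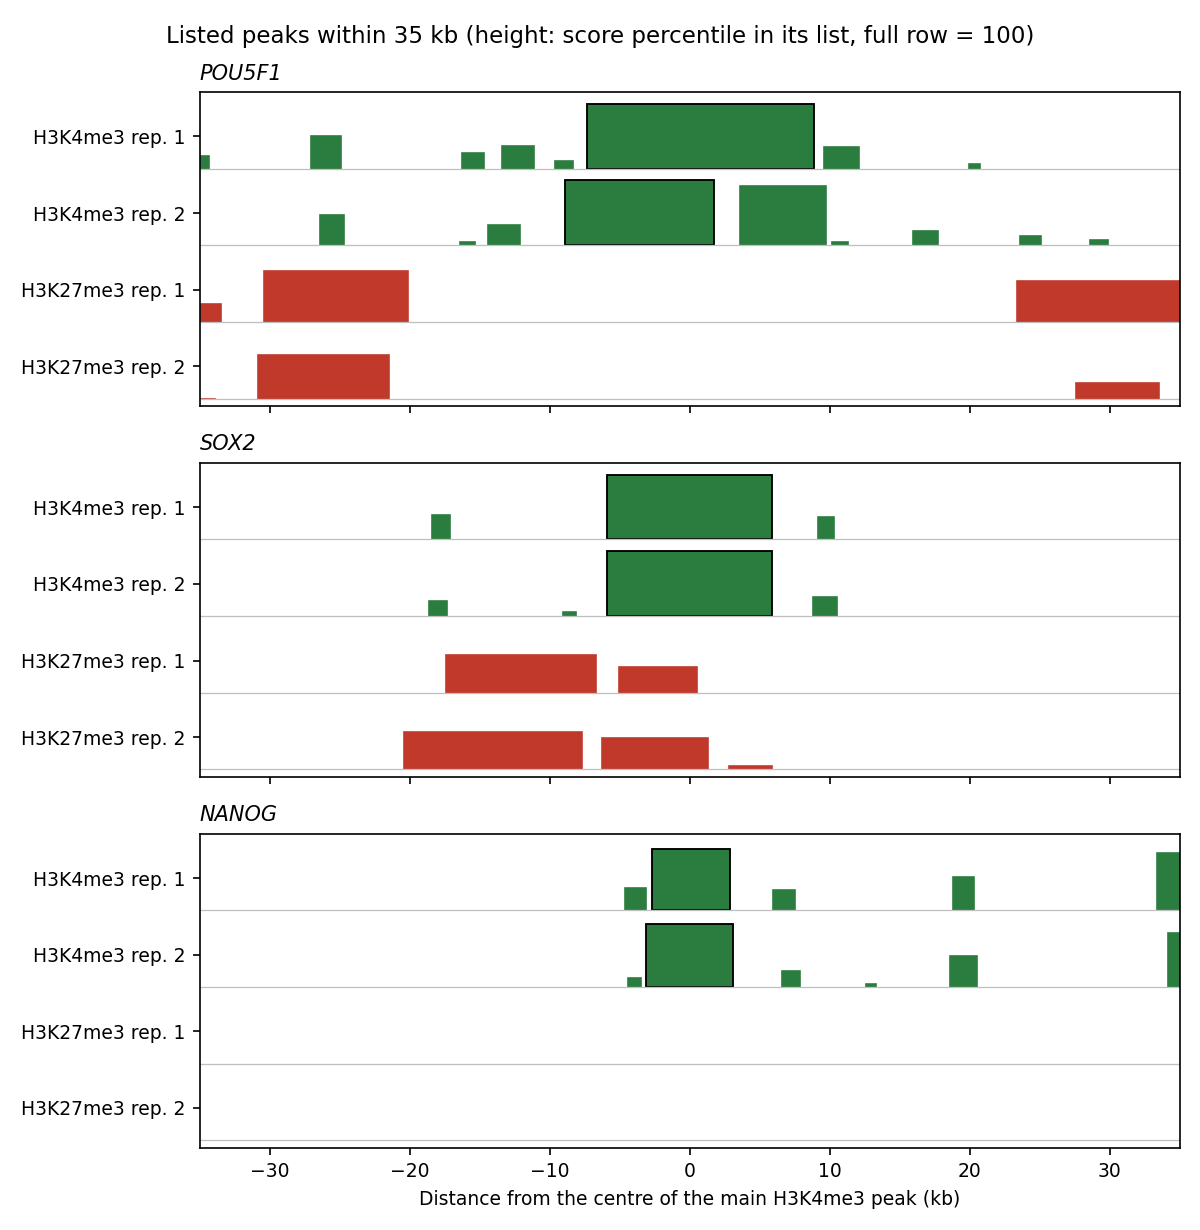
Listed peaks within 35 kb of the centre of the merged main H3K4me3 peaks (horizontal axis, kb), with H3K4me3 in green, H3K27me3 in red and the main peak outlined; bar height is the score percentile within the list. H3K27me3 lies over the lower-coordinate part of the SOX2 peak in both replicates, flanks POU5F1 at least 12.6 kb from the main peak of the same replicate and is not listed around NANOG.

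POU5F1 lay in an island between H3K27me3 peaks. In replicate 1 the nearest H3K27me3 peaks ended 12.8 kb before the main peak and began 14.4 kb after it, which left a stretch of 43.4 kb without H3K27me3. The stretch was 49.0 kb in replicate 2, with gaps of 12.6 and 25.8 kb. The H3K27me3 peak on the lower-coordinate side, 10.4 and 9.4 kb wide, stood at percentiles of 79.3 and 68.9. It enclosed a small H3K4me3 peak in each library, of 2.2 kb with a score of 198 in replicate 1 and of 1.8 kb with a score of 186 in replicate 2. The marks were thus listed together 16.0 and 15.8 kb from the merged POU5F1 peaks and apart at them. Within 500 kb of the POU5F1 peak of each library, H3K27me3 covered 27.04% and 24.86%, compared with 18.1% of chromosome 23 in each library and a median of 7.66% and 8.25% around all autosomal H3K4me3 peaks. This cover was at or above 83.2% and 80.2% of the autosomal values. Of the 30 and 24 H3K27me3 peaks in the neighbourhood, 25 (83.3%, 95% Wilson interval 66.4% to 92.7%) and 16 (66.7%, 46.7% to 82.0%) overlapped H3K4me3, against 21.6% and 23.5% of the H3K27me3 lists. The intervals cover counting error only and treat peaks as independent. Some adjacent peaks of replicate 1 were listed as a single peak in replicate 2, so the intervals are no test. H3K4me3 itself covered 43.1% and 41.3% of this neighbourhood, against 11.03% and 11.29% of chromosome 23, and the part of this density in the overlap was not tested. All H3K27me3 peaks except 5 in replicate 1 and 2 in replicate 2 lay within 250 kb of POU5F1. The widest H3K27me3 peak measured 39.8 kb in replicate 1 and 67.2 kb in replicate 2, at percentiles of 96.8 and 98.6.

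NANOG showed the opposite surroundings. A single H3K27me3 peak per library fell within 500 kb, at 487.6 and 479.6 kb from the merged main peaks, with scores of 144 and 245 at percentiles of 39.7 and 40.4. These peaks, from 101905201 to 101913000 and from 101897201 to 101904600, did not overlap each other. On the other side the nearest H3K27me3 peak was 2492 and 2491 kb away. NANOG was therefore located in a stretch of 2986 and 2977 kb without listed H3K27me3, which was as long as or longer than that around 96.0% and 97.1% of the autosomal H3K4me3 peaks. The corresponding medians over all autosomal H3K4me3 peaks, counting those over H3K27me3 as 0, were 235.2 and 230.8 kb, and POU5F1 with 43.4 and 49.0 kb stood well below them. Neighbouring peaks share the same stretch, so these shares describe the lists and are not tests.

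The number of H3K4me3 peaks around the genes also differed. Within 500 kb there were 148 and 127 H3K4me3 peaks at POU5F1, 24 and 25 at NANOG and 4 and 5 at SOX2, in replicates 1 and 2. Per Mb of neighbourhood this came to 145.4 and 124.8, 23.9 and 24.8, and 3.95 and 4.94. The replicates differed far less than the genes did. Counted around every autosomal H3K4me3 peak of a list by itself, the median density was 17.9 and 16.9 per Mb. Counted so from the main peak of each library, the density around POU5F1 was 144.7 and 124.7 per Mb. This was at or above 99.9% and 99.7% of the autosomal values. The density around NANOG was at or above 60.3% and 64.1%, and that around SOX2 4.47% and 7.80%. Chromosome 23 as a whole carried 47.3 and 41.3 H3K4me3 peaks per Mb, chromosome 5 carried 9.80 and 9.002, and chromosome 1 carried 5.17 and 4.69. The high count at POU5F1 thus moved with a high count on its chromosome, whose part in the result was not tested.

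**Figure D4:**
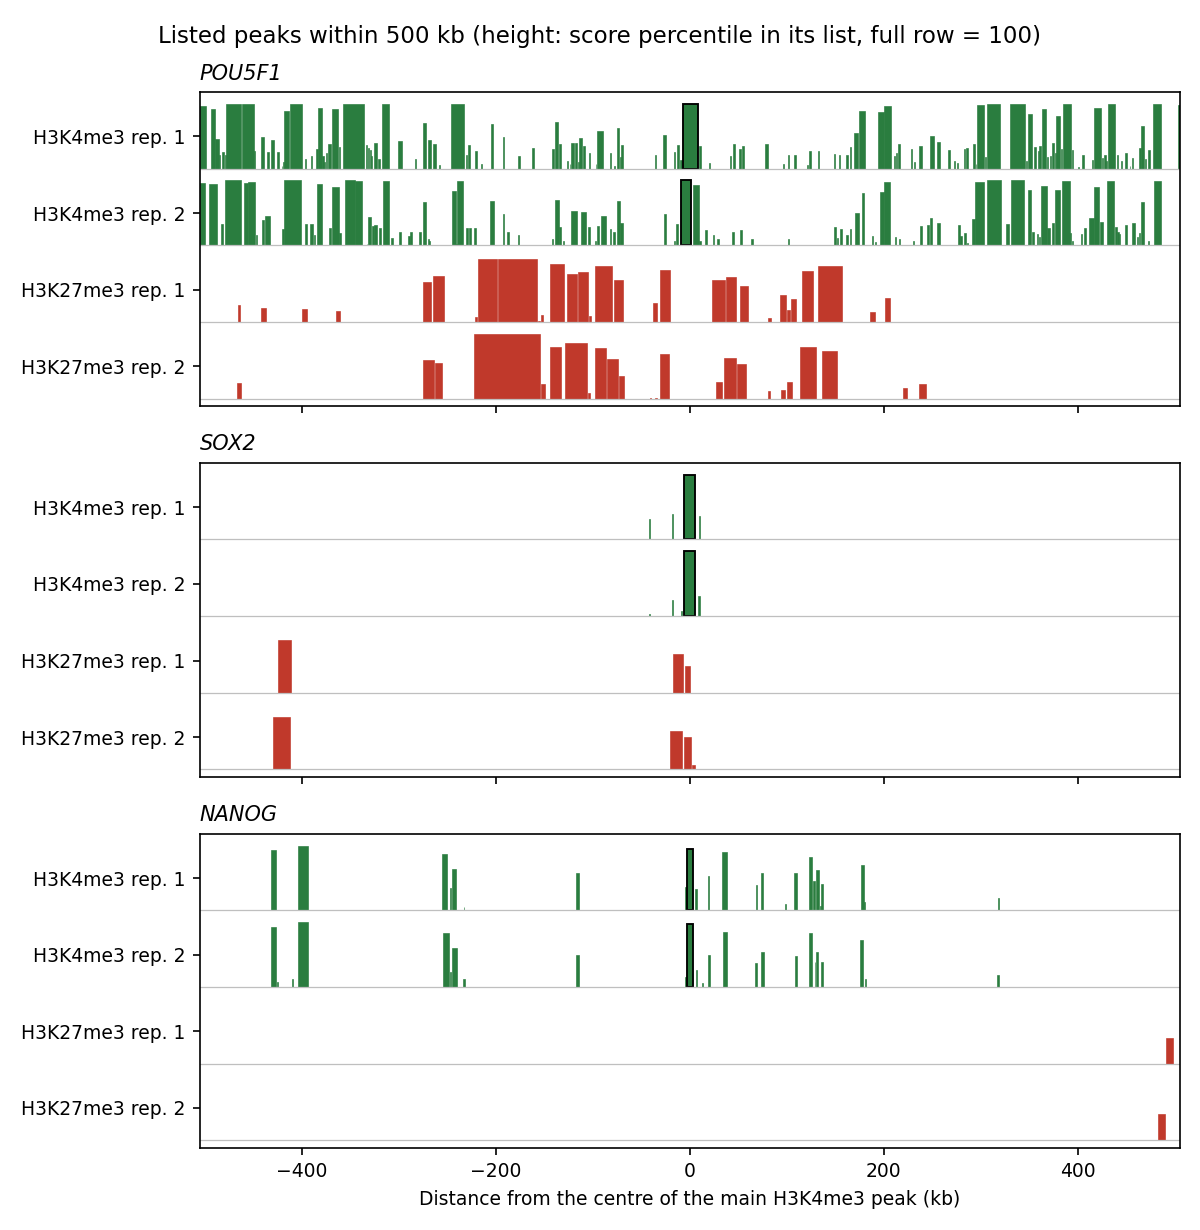
Listed peaks within 500 kb of the centre of the merged main H3K4me3 peaks (horizontal axis, kb), drawn as in the close view, with bar height as the score percentile within the list. POU5F1 has 148 and 127 H3K4me3 peaks with H3K27me3 in between, SOX2 has 4 and 5, and NANOG has 24 and 25 with H3K27me3 at the far right edge alone.

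Most neighbours of POU5F1 were weak, and a few were very strong. Of the 147 neighbours in replicate 1 and the 126 in replicate 2, 34 (23.1%, 17.05% to 30.6%) and 36 (28.6%, 21.4% to 37.0%) reached the median score of their list, against 50.0% and 50.1% of all peaks. These Wilson intervals cover counting error only. Conversely, 10 (6.80%, 3.74% to 12.1%) and 9 (7.14%, 3.803% to 13.0%) were at or above 99% of their list, against 1.01% and 1.00% of all peaks. The share on chromosome 23, which held many of the highest scores, was not computed. All 9 such neighbours of replicate 2 overlapped such a peak of replicate 1. They lay on both sides, 5 and 4 at lower and 5 and 5 at higher coordinates, and the nearest was 223.2 and 224.4 kb from POU5F1. The highest was a different peak in each library, 27629001 to 27650400 with a score of 3683 in replicate 1 and 28317801 to 28331400 with a score of 2962 in replicate 2. Both exceeded POU5F1, which stood 4th and 6th in its own neighbourhood. Replicate 2 listed the stretch of the highest peak of replicate 1 as separate peaks. These ran from 27631801 to 27641200 and from 27641601 to 27648800, with scores of 2040 and 1271. The change in the highest peak thus coincided with a split of that domain. Within 100 kb, the 24 neighbours of replicate 1 reached a percentile of 62.2 at most. The 21 of replicate 2 reached 92.0, which was the split-off peak described above. POU5F1 was thus the strongest H3K4me3 peak within 200 kb in both libraries, among many weak peaks and with domains of similar rank farther out. Of its neighbours, 48 (32.7%, 25.6% to 40.6%) and 31 (24.6%, 17.9% to 32.8%) overlapped H3K27me3, near the 29.3% and 29.5% of the lists.

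SOX2 stood almost alone. Its 3 and 4 neighbours lay at most 34.8 and 35 kb away and spanned 0.6 to 1.8 kb, with score percentiles between 31.9 and 39.3 in replicate 1 and between 3.57 and 30.4 in replicate 2. None reached the median of its list. From there to the edge of the neighbourhood no H3K4me3 peak was listed on either side, and the next ones lay 755.6 and 726.4 kb away in replicate 1 and 1068 and 726.6 kb away in replicate 2. The small peak 11.2 and 11.4 kb before the main peak partly or fully overlapped the flanking H3K27me3 peak, by 0.4 kb in replicate 1 and over its whole 1.4 kb in replicate 2. Replicate 2 listed another of 1.0 kb inside the same H3K27me3 peak, with a score of 41, which replicate 1 did not list. The remaining H3K27me3 peak of the neighbourhood, of 14.0 and 17.6 kb at percentiles of 80.3 and 81.1, lay 404.6 and 405.6 kb away, with no H3K4me3. H3K27me3 covered 3.00% and 4.07% of the neighbourhood, compared with 4.00% and 4.56% of chromosome 1.

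The neighbours of NANOG were of ordinary strength. Of the 23 and 24, 12 (52.2%, 33.0% to 70.8%) and 9 (37.5%, 21.2% to 57.3%) reached the median score, and none was at or above 99% of its list. The strongest began at 101011201 in replicate 1 and at 101010801 in replicate 2, ended at 101021200 in both and lay 390.2 kb away with scores of 1402 and 1353. Those exceeded the scores of the NANOG peak itself, which stood 2nd in its neighbourhood in both libraries. Close to NANOG, a small peak of 1.6 and 1.0 kb was listed just before the main peak and another of 1.6 and 1.4 kb followed 2.8 and 3.4 kb after the merged main peaks. A stronger peak, of 5.2 and 4.0 kb at percentiles of 88.7 and 84.5, lay 30.2 and 31.0 kb beyond. On the side of lower coordinates, apart from the small adjacent peak, the nearest H3K4me3 peak was 110.8 and 111.4 kb away. None of the 23 and 24 neighbours overlapped H3K27me3, against 29.3% and 29.5% of the lists and 24.7% and 24.9% of autosomal peaks, as follows from the single distant H3K27me3 peak listed in each library. H3K27me3 covered 0.775% and 0.735% of the neighbourhood, against 6.93% and 7.36% of chromosome 5.

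**Figure D5:**
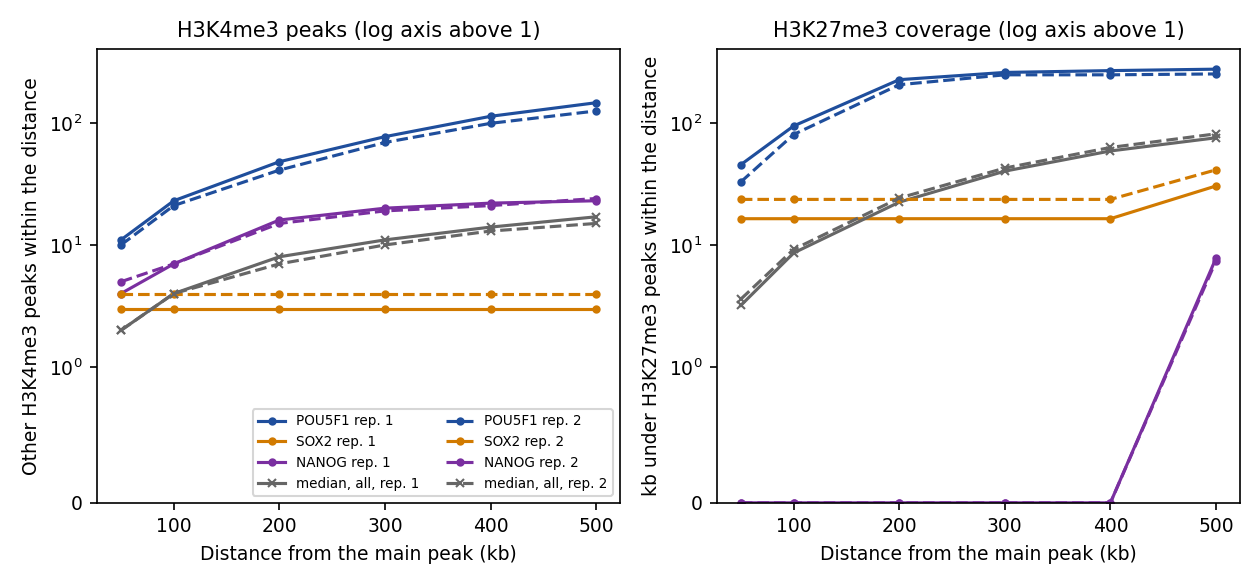
Number of other H3K4me3 peaks (left) and kb under H3K27me3 peaks (right) within growing distances of each main peak (horizontal axis, kb; vertical axis logarithmic above 1), with solid lines for replicate 1 and dashed lines for replicate 2. Gray lines are medians over all autosomal H3K4me3 peaks. Counted from the main peak of each library, at 500 kb POU5F1 has 146 and 125 other peaks, SOX2 3 and 4, and NANOG 23 and 24, against medians of 17 and 15.

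Replicates agreed on most neighbours. A neighbouring H3K4me3 peak was found in the other library for 110 of 147 (74.8%, 67.2% to 81.2%) and 104 of 126 (82.5%, 74.98% to 88.2%) at POU5F1, for 20 of 23 and 20 of 24 at NANOG, and for 3 of 3 and 3 of 4 at SOX2. The shares over the whole lists were 83.1% and 89.7%. The peaks that were not found again were weak, with score percentiles of at most 44.5 and 32.7 at POU5F1, 13.3 and 12.5 at NANOG, and 7.28 at SOX2. Where a single peak faced a single peak, the edges differed by a median of 400 bp over 122 edges at POU5F1, 400 bp over 42 edges at NANOG and 200 bp over 8 edges at SOX2. For H3K27me3, 25 of 30 and 21 of 24 peaks around POU5F1 and 3 of 3 and 3 of 4 around SOX2 were found in the other library, while the single peak near NANOG was not found again in either direction, compared with 91.0% and 83.3% of the lists. Listed edges of H3K27me3 shifted more, by a median of 1300 bp over 22 edges at POU5F1 and 1100 bp over 6 edges at SOX2. Gaps of up to 5 windows were allowed within an H3K27me3 peak, against 1 for H3K4me3. The part of this setting in the shift was not tested.

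The neighbourhood limit of 500 kb bears on some of these values. The H3K27me3 peaks counted for NANOG lay just inside it, and the next, at 542.8 and 541.8 kb, lay just outside with scores of 82 and 166. Around POU5F1 the outermost H3K4me3 peaks inside were at 498.8 and 494.6 kb in replicate 1 and 490.4 and 496.6 kb in replicate 2, and the first outside were at 502.0 and 502.2 kb and at 504.0 and 502.4 kb. Around SOX2 no peak lay near the limit, with H3K27me3 at 404.6 and 405.6 kb inside and at 633.2 and 632.4 kb outside.

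The genes also differ in what lies next to them. In the gene order of RefSeq for ARS-UCD2.0, a later assembly whose coordinates were not used, TCF19 and CCHCR1 follow POU5F1, and MIC1, a gene of the major histocompatibility complex region, is the second protein-coding gene on the other side. The nearest protein-coding genes to SOX2 are ATP11B, a phospholipid-transporting ATPase, and DNAJC19, a mitochondrial import protein. NANOG stands between DPPA3, a maternal factor expressed in germ cells and early embryos, and SLC2A3, a glucose transporter, with GDF3, a ligand of the TGFβ superfamily, next to DPPA3. None of the peaks was assigned to these genes.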

How the data were processed

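Per the study's methods, the authors used Trim Galore for trimming and BWA for alignment to ARS-UCD1.2, filtered out duplicated and poorly mapped reads, and ran epic2 on each library by itself with windows of 200 bp. No control library is stated. All peaks filled whole windows, and the smallest gaps between peaks were 400 bp in H3K4me3 and 1200 bp in H3K27me3, so closely spaced H3K27me3 is joined more readily. The deposited lists give position and a score, which the authors do not define.

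Mark and replicate were taken from the sample labels. Marks were compared within a replicate number, and peaks were shared with an overlap of at least 1 bp. The last listed peak was taken as the end of a chromosome. Scores were ranked within each list. Peaks at or above 99% of the scores of a list were singled out after the lists were seen. The genes, their neighbourhoods and these measures were chosen with earlier results of these data known. The named genes were the 3 core factors and, as names, up to 3 protein-coding neighbours on each side from the RefSeq table. All 3 symbols matched it. Other pluripotency genes and promoter sequence features, which had been planned, were not analysed here.

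Python 3.11.15, numpy 2.4.6, pandas 2.3.3 and matplotlib 3.10.9 were used. Overlaps and distances were tested on simulated data and gave the same values as bedtools 2.31.1. The alternatives were a distance of 250 kb, other ranked measures and peaks, score and overlap limits, merged or shared peaks, and each replicate left out. Ranks within a chromosome and widths after joining peaks within 2 kb were added after the data were seen.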

Additional observations from a re-analysis of the deposited data

How the results depend on the processing

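No paired analysis was possible because the values come from peak lists and from no fit that takes a block. Values here are means of the replicates, and the cause of a change was not tested unless the setting itself gives it.

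By score per window the percentile of the main peak was 94.2 for POU5F1, 76.5 for SOX2 and 86.1 for NANOG, and by width it was 99.6, 99.6 and 94.1. Width after joining peaks within 2 kb gave 99.7, 98.2 and 94.0, with POU5F1 above SOX2 in both replicates. In replicate 2 that order rests on the joining limit. Ranking within the chromosome gave 98.9, 99.4 and 93.5, with SOX2 above POU5F1 in both. Within 250 kb the H3K4me3 density was 113.9 per Mb at POU5F1, 8.79 at SOX2 and 40.5 at NANOG, and when peaks scoring below the list median were left out it was 35.4, 0.988 and 11.4. The order of the genes by density held under both. H3K27me3 covered 46.0% of the surroundings of POU5F1 and 0% of those of NANOG within 250 kb, and 20.7%, 2.73% and 0% around POU5F1, SOX2 and NANOG without peaks below the median score. That filter also took the covered share of the SOX2 main peak to 0% and the distance to its nearest H3K27me3 peak to 1.30 kb, because the peaks over it all scored below the median, the widest in replicate 2 only just, with 311 against a median of 315. The distance for NANOG became 843.2 kb under it and 542.4 kb with shared H3K27me3 peaks alone.

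Of the neighbouring H3K4me3 peaks, 92.8% were shared at POU5F1 without peaks below the median score, and 66.6% at POU5F1 and 80.9% at NANOG with an overlap of at least 50%. For H3K27me3 at POU5F1 the share was 89.2% within 250 kb, 100% without peaks below the median score and 82.1% with an overlap of at least 50%. SOX2 had no H3K4me3 neighbour, and NANOG no H3K27me3 peak, left to compare at or above the median score, nor NANOG an H3K27me3 peak within 250 kb. Leaving out a replicate moved no value by more than the SD between replicates, which follows from there being 2. Depth is unknown, so a mark below the caller's limit cannot be told apart from its absence.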
